A study of Homo sapiens with 14 samples.

Results

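RNA levels of 9 tight junction genes were compared in A549 and H1792 cells, both established from human lung adenocarcinomas. The cells had been kept for 48 h in 0.1 µM AMG900, which inhibits the aurora kinases, or in DMSO, the control. The genes were CLDN1, CLDN2, CLDN3, CLDN4, CLDN7, CLDN12, OCLN, TJP1 and F11R, taken by their symbols from the 26732 genes listed for both lines. All 9 were listed in each line, and 8 in A549 and 9 in H1792 had enough counts to be tested. A549 cells (4 DMSO and 4 AMG900 libraries) were grown in DMEM and H1792 cells (3 DMSO and 3 AMG900 libraries) in RPMI 1640, so a difference between the lines cannot be told apart from one between the media. The labels do not say whether replicates were separate cultures of 1 passage or independent experiments, and the p-values measure only the spread between these libraries. The treatment protocol of the labels gives 3 dishes for each treatment, while 4 libraries for each are listed for A549, and all were used.

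Tight junctions seal the space between neighbouring epithelial cells. Claudins are 4-pass membrane proteins that join those of the next cell and set which ions and molecules pass, with CLDN1, CLDN3 and CLDN4 counted among the sealing claudins and CLDN2 forming a channel for cations and water. OCLN (occludin) and F11R (the adhesion molecule JAM-A) are further membrane proteins of the junction, and TJP1 (ZO-1) is the scaffold below the membrane that ties them to actin. In epithelial tumours these genes are often discussed together with the epithelial-mesenchymal transition, in which the repressors SNAI1, SNAI2, ZEB1 and ZEB2 act on junction genes through E-box sequences.

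In both lines CLDN4 was about 3-fold and F11R about 2-fold higher with AMG900 than with DMSO. CLDN3 and CLDN7 also rose in H1792, and CLDN2 rose in A549. CLDN12 fell in H1792 and TJP1 fell in A549, while CLDN1 and OCLN did not pass the test in either line. CLDN3 just missed the threshold in A549, and CLDN7 had too few counts to be tested there. None of these genes passed the direct test by edgeR of a different response in the lines. With DMSO alone, CLDN2 and F11R were abundant in A549 and low in H1792, where CLDN3, CLDN4 and CLDN7 were higher.

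By the GENCODE annotation of GRCh37, CLDN3 (chr7:73183327-73184600, minus strand) and CLDN4 (chr7:73213872-73247020, plus strand) are near neighbours, each with its reference transcript in 1 exon. CLDN12 lies farther along the same chromosome (chr7:90013035-90142716). CLDN7 is at chr17:7163222-7167302, CLDN1 at chr3:190023496-190040235, CLDN2 at chrX:106143394-106174091, F11R at chr1:160965001-160991133, TJP1 at chr15:29991571-30261118 and OCLN at chr5:68788119-68853931. Gene symbols alone identify the counts, so each value covers all exons that the authors assigned to the symbol. In OCLN, 82% of the 6181-base reference transcript has a copy of at least 99% identity elsewhere on chromosome 5, so its counts are uncertain. CLDN7 shares 38 bases of its transcript with ELP5 on the opposite strand. The other 7 genes had no such copy or overlap.

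The sequences before the start sites of the claudins that changed in H1792 are shown because CLDN3, CLDN4 and CLDN7 rose together there and CLDN12 fell. RefSeq promoter windows (GRCh38.p14) were found for 8 of the 9 genes, and the 250 bases before each start were searched on both strands for the E-box CAGGTG, the GC box GGGCGG, the AP-1 site TGANTCA and the TEAD site GGAATG. Of 35116 windows of this kind, 17.5% held the E-box, 42.6% the GC box, 6.57% the AP-1 site and 11.9% the TEAD site. Where a window overlaps a transcribed untranslated stretch in GENCODE, only the part before that stretch or 30 bases around a match are printed. The line of CLDN12 therefore ends 76 bases before the start. Capitals mark matches to any of the 4 motifs, none of which overlapped another.
CLDN3, chr7:73770271-73770520, minus strand: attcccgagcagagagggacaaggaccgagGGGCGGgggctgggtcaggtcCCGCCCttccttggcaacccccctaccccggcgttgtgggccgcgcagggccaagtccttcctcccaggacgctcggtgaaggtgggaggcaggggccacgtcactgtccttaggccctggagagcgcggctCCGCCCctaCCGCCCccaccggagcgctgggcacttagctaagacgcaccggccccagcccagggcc
CLDN12, chr7:90403211-90403385, plus strand: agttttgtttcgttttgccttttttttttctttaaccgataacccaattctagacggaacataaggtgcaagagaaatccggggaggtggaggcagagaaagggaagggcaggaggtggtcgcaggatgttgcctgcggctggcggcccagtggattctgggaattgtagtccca
CLDN4, first AP-1 match, chr7:73830746-73830775, plus strand: ctgggctgTGATTCAgtgtctgtctcccgg
CLDN4, second AP-1 match, chr7:73830827-73830856, plus strand: ctggatagTGACTCAgggacccggggctgg
CLDN7, first E-box match, chr17:7262631-7262660, minus strand: ttcctcctCACCTGggcaaggaggggtggg
CLDN7, second E-box match, chr17:7262592-7262621, minus strand: ttccggttCAGGTGagtgtcccttcggtga
CLDN7, the 2 E-box matches next to the start, chr17:7262479-7262508, minus strand: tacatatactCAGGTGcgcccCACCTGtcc

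The window of CLDN3 held 4 GC boxes and no E-box. The CLDN4 window held 2 AP-1 matches and 1 GC box. A start of CLDN7 had 4 E-box matches, beginning 174, 135, 20 and 9 bases before it, and 1 GC box. The other CLDN7 window and the CLDN12 window held none of the 4 motifs. The E-box was not found in the windows of CLDN1, CLDN2 or CLDN4 either, and was found in both windows of OCLN and in 1 of 4 windows of TJP1. GC boxes were also found in genes that did not rise in H1792. The CLDN1 window held 2, a window of OCLN held 1, and windows of TJP1 held 1, 3 and 2. A window of CLDN2, which did not rise there either, held 1 AP-1 match. No window of the set held the TEAD site. A match says only that these letters are there.

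Library depth was uneven. Total counts ran from 4254644 to 18962883 in A549 and from 42760874 to 79902934 in H1792, and 1 CPM, a count scaled to the library total with TMM factors, stood for 4.51 to 18.5 counts in A549 and 42.8 to 75.9 in H1792. The 9 genes together took 0.027% to 0.0416% of an A549 library and 0.00797% to 0.0105% of an H1792 library. A549 DMSO replicate 1, the smallest library, stood apart from its group: its chi-square per gene against the other 3 was 13.8 to 16.6, and 3.31 to 4.75 among those 3. Of the 9 genes, results whose call changed when it was left out are also given without it, as are those of CLDN2 and F11R in A549. In H1792 with DMSO, the pairs with replicate 1, the largest library of that group, gave 48.3 and 22.7 and the other pair 14.8. Among 5 epithelial markers, the summed level was 4230 to 7060 CPM in A549 and 674 to 851 CPM in H1792, where CDH1 (E-cadherin), which joins cells at adherens junctions, was at only 0.583 to 1.07 CPM. EPCAM had 1 to 10 counts in the A549 libraries. With AMG900 the epithelial sum went from 4230 to 5330 up to 6080 to 7060 CPM in A549, with all 4 tested markers higher, and 1 of 5 was higher in H1792 (KRT19, log2 0.54). The sum of 5 fibroblast markers was 0.576 to 1.26 CPM in A549. In H1792 it was 221 to 241 CPM with DMSO and 120 to 130 CPM with AMG900. There DCN, LUM, PDGFRA and COL3A1 fell, COL3A1 from a mean of 170 to 78 CPM. PDGFRB did not pass (log2 0.28). Sums of 4 endothelial markers stayed at 0.464 to 17.1 CPM in all groups, with PECAM1 and CDH5 higher with AMG900 in H1792. VWF (log2 -2.72) and KDR (0.30) did not pass there. VWF had 517 counts in H1792 DMSO replicate 2, against 18 and 15 in the other libraries of that group. Sums of 5 leukocyte markers were at 1.49 to 11.6 CPM, with CD14 higher with AMG900 in A549, and CD3E, which marks T cells, was at 0 in 3 of the 4 groups. The part of these marker lists in the results on the 9 genes was not tested. In such bulk libraries, fewer cells expressing a gene and less RNA per cell cannot be told apart.

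CLDN4 is a claudin of tight epithelia, and it rose in each line. In A549 it was at 2.22, 0.946, 1.44 and 1.55 CPM in the DMSO libraries and at 3.2, 4.96, 4.44 and 5.84 CPM in the AMG900 libraries. Every treated library lay above every control, although the counts behind these values were only 10 to 27 and 34 to 88. The fold change was 3 (log2 1.59 ± 0.29 SE, adjusted p = 0.000345). This and the other adjusted p-values are from the quasi-likelihood test of edgeR, corrected by the Benjamini-Hochberg method over all genes, with a threshold of 0.01 for a call. In H1792 the level was 8.7, 7.19 and 6.79 CPM with DMSO and 23.3, 23.1 and 21.4 CPM with AMG900. The treated libraries were tightly grouped and far from the controls, with 291 to 555 and 1128 to 1771 counts. The fold change was 2.97 (log2 1.57 ± 0.10, adjusted p = 1.41e-06).

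CLDN3, its neighbour on chromosome 7, changed in the same direction. In H1792 it was at 9.31, 7.97 and 8.49 CPM with DMSO and at 18.2, 19 and 16.9 CPM with AMG900, a 2.09-fold rise (log2 1.07 ± 0.09, adjusted p = 7.95e-06). The 2 groups were separated by a wide gap. In A549 it was at 1.77, 0.602, 2.88 and 1.21 CPM with DMSO and at 3.01, 4.11, 3.41 and 6.44 CPM with AMG900. The groups did not overlap, but the highest control lay just below the lowest treated library and the controls held only 7 to 40 counts. The difference in A549 (log2 1.32 ± 0.39) just missed the threshold of 0.01 with an adjusted p of 0.0104. Without A549 DMSO replicate 1 it was 1.35 (adjusted p = 0.0032) and without DMSO replicate 3 it was 1.87 (adjusted p = 0.00166), both past the threshold. The other 6 fits with a library left out did not pass, with values down to 1.04 (adjusted p up to 0.0498).

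CLDN7, which in many epithelia is also found along the lateral membrane, was measurable in H1792 only. There it stood at 1.22, 0.944 and 1.47 CPM with DMSO and at 3.12, 2.54 and 2.2 CPM with AMG900. All treated libraries were above all controls, with AMG900 replicate 1 the highest. The rise was 2.17-fold (log2 1.12 ± 0.22, adjusted p = 0.00137). Without AMG900 replicate 1 it was 0.97 on the log2 scale and missed the threshold (adjusted p = 0.0126). In A549, CLDN7 had between 0 and 4 counts in each library and was not tested.

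F11R, the adhesion molecule JAM-A, rose by a similar factor in both lines from very different levels. The A549 libraries held 48.7, 57.4, 57.8 and 56.5 CPM with DMSO and 124, 128, 112 and 112 CPM with AMG900. The groups were far apart, and the fold change was 2.03 (log2 1.02 ± 0.08, adjusted p = 9.28e-08). Without A549 DMSO replicate 1 the log2 value was 0.98 (adjusted p = 5.75e-12). The H1792 libraries held 1.46, 1.17 and 1.75 CPM with DMSO and 3.21, 3.77 and 2.58 CPM with AMG900. Again no treated library reached down to a control, at 56 to 93 and 145 to 244 counts, and the fold change was 2.18 (log2 1.12 ± 0.20, adjusted p = 0.000924).

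CLDN2, the cation channel, was the most abundant of the 9 genes in A549. It stood at 82.4, 120, 117 and 119 CPM with DMSO and at 192, 179, 169 and 168 CPM with AMG900. DMSO replicate 1 was the lowest library, and all treated libraries were above all controls. The rise was 1.52-fold (log2 0.60 ± 0.10, adjusted p = 0.000173), and 0.50 on the log2 scale without DMSO replicate 1 (adjusted p = 2.4e-07). In H1792 only 13 to 40 counts were found in a library. The levels of 0.36, 0.776 and 0.467 CPM with DMSO and of 0.356, 0.266 and 0.711 CPM with AMG900 overlapped, with a log2 difference of -0.26 (95% interval -1.11 to 0.60, adjusted p = 0.65). The interval is approximate and somewhat too narrow, and its upper bound equals the change seen in A549.

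**Figure D1:**
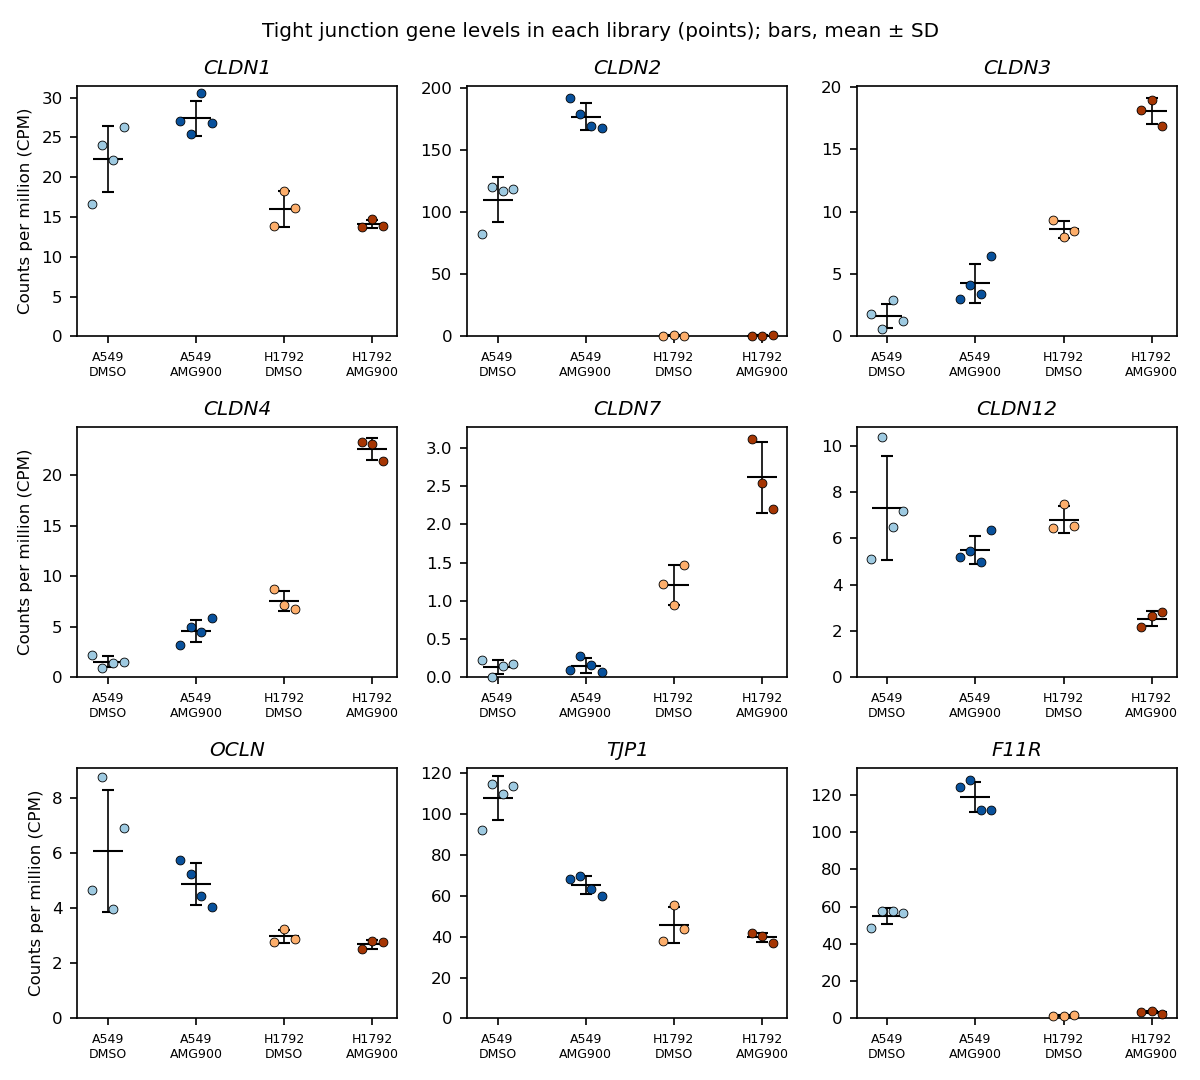
CPM of each of the 9 genes (y axis, from 0, own scale in each panel) in A549 and H1792 with DMSO or AMG900 (x axis). Points are libraries and bars are the mean ± SD. CLDN4 and F11R are higher with AMG900 in both lines, CLDN12 is lower in H1792 (2.16 to 2.82 against 6.43 to 7.47 CPM) and TJP1 is lower in A549 (60.1 to 69.7 against 92.4 to 115 CPM).

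CLDN12, a claudin that lacks the usual C-terminal motif for binding to ZO proteins, was the gene that fell in H1792. Its level was 6.43, 7.47 and 6.53 CPM with DMSO and 2.16, 2.64 and 2.82 CPM with AMG900. The groups were well apart, and the decrease was 2.69-fold (log2 -1.43 ± 0.14, adjusted p = 1.62e-05). In A549 it stood at 5.1, 10.4, 6.48 and 7.2 CPM with DMSO and 5.18, 5.46, 4.99 and 6.37 CPM with AMG900. DMSO replicate 2 was high and DMSO replicate 1 lay within the treated range, and the log2 difference of -0.52 ± 0.21 did not pass (adjusted p = 0.055).

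TJP1, the scaffold protein ZO-1, showed the opposite order of the lines. In A549 it was at 92.4, 115, 110 and 114 CPM with DMSO and at 68.1, 69.7, 63.6 and 60.1 CPM with AMG900. No library of one group reached the other, and the decrease was 1.75-fold (log2 -0.81 ± 0.09, adjusted p = 2.03e-06). In H1792 it was at 37.9, 55.3 and 43.7 CPM with DMSO and at 41.8, 40.2 and 37.1 CPM with AMG900. These groups overlapped, with DMSO replicate 1 as low as the treated libraries, and the log2 difference was -0.20 ± 0.12 (adjusted p = 0.17). With a library left out it ran from -0.35 to -0.05, and 1 of 6 such fits passed, the one without DMSO replicate 1 (adjusted p = 0.00839).

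CLDN1, a core sealing claudin, did not pass the test in either line. In A549 it was at 16.6, 24, 22.2 and 26.3 CPM with DMSO and at 27, 25.4, 30.6 and 26.8 CPM with AMG900. The ranges overlapped slightly, and the log2 difference was 0.20 (95% interval -0.05 to 0.45, adjusted p = 0.214). In H1792 it was at 13.8, 18.2 and 16.1 CPM with DMSO and at 13.7, 14.7 and 13.9 CPM with AMG900. Here too the ranges overlapped (log2 -0.18, 95% interval -0.39 to 0.02, adjusted p = 0.164). With a library left out it ran from -0.31 to -0.09, and 1 of 6 such fits passed, the one without H1792 DMSO replicate 1 (adjusted p = 0.00454).

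OCLN stayed low in all groups, at 3.96 to 8.77 CPM in A549 with DMSO and 4.05 to 5.74 CPM with AMG900. The corresponding ranges in H1792 were 2.77 to 3.23 and 2.5 to 2.79 CPM. Neither the A549 difference (log2 -0.43 ± 0.25, adjusted p = 0.168) nor the H1792 difference (-0.15 ± 0.15, adjusted p = 0.434) passed. Because of the copy on chromosome 5, the level of OCLN and its place among the genes by level are uncertain.

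In all, 3 of 8 tested genes of the set were higher and 1 lower with AMG900 in A549, where 17.3% of all 13174 genes tested were higher and 17.8% lower. In H1792, 4 of 9 were higher and 1 lower, beside 16.7% and 19.2% of 15017 genes. The median log2 fold change of the set was 0.40 in A549 and -0.15 in H1792, against -0.01 and 0.01 over all genes tested. Groups did not overlap for 5 of the genes in each line, as for 44% of all genes tested in A549 and 59.6% in H1792.

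**Figure D2:**
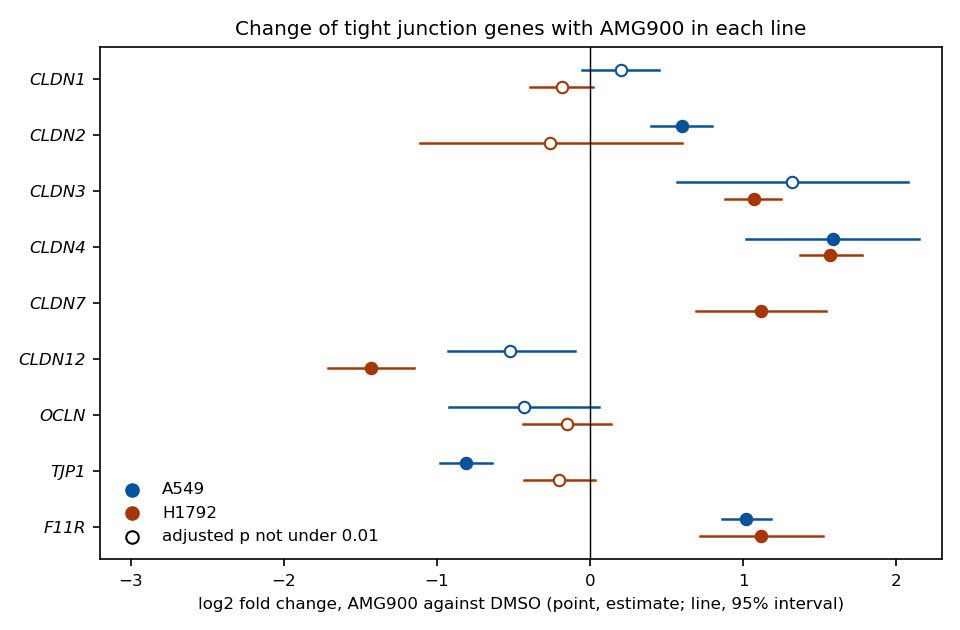
Log2 fold change of each gene between AMG900 and DMSO (x axis) in A549 (blue) and H1792 (brown). Points are edgeR estimates, filled where the adjusted p is under 0.01. Lines are approximate 95% intervals, somewhat too narrow for so few libraries. CLDN4 (1.59 and 1.57) and F11R (1.02 and 1.12) had nearly equal values in the 2 lines, and CLDN12 (-0.52 and -1.43) and TJP1 (-0.81 and -0.20) lay farthest apart among genes measured well in both. CLDN7 has no A549 value.

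Whether a gene responded differently in the lines was tested directly, as H1792 change minus A549 change in 1 fit of all 14 libraries. Of the 9 genes, 0 passed in either direction by edgeR, where 5.48% of 14769 genes had a more positive and 9.34% a more negative change in H1792. With DESeq2 size factors these shares were 6.88% and 7.02%, so the balance between directions depends on the scaling. The median difference over all genes tested was -0.10, and DESeq2 size factors shifted the differences by a median of 0.08. The values below are not corrected for this offset. At an unadjusted p under 0.05 there were 4 genes of the set, and DESeq2 called 2 of them. CLDN12 fell more in H1792 by 0.98 on the log2 scale (95% interval -1.51 to -0.45), with an adjusted p of 0.0107 by edgeR and 0.00422 by DESeq2. TJP1 differed by 0.53 (0.24 to 0.83), with an adjusted p of 0.0126 by edgeR and 0.0013 by DESeq2. Leaving out A549 DMSO replicate 1 brought both past the threshold in edgeR (adjusted p = 0.00909 for CLDN12 and 0.00184 for TJP1). Leaving out A549 DMSO replicate 2 did so for CLDN12 (-1.19, adjusted p = 0.00162) and leaving out H1792 DMSO replicate 2 for TJP1 (0.69, adjusted p = 0.000649). For each gene, 2 of 14 such fits passed, and the others had adjusted p-values up to 0.0427 for CLDN12 and 0.0478 for TJP1.

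The other genes of the set gave wide or small differences between the lines. CLDN1 differed by -0.45 (95% interval -0.81 to -0.10, adjusted p = 0.0722) and CLDN2 by -0.91 (-1.67 to -0.15, adjusted p = 0.0991). For CLDN4 the difference was -0.11 (-0.66 to 0.44) and for F11R it was 0.03 (-0.31 to 0.36). A gap between the lines larger than these approximate bounds was not seen. CLDN3 (-0.34, interval -1.12 to 0.44), CLDN7 (0.84, -0.82 to 2.49) and OCLN (0.21, -0.40 to 0.83) were less well determined. The CLDN7 value rests on 0 to 4 counts in each A549 library.

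The DMSO libraries show what each line expressed without AMG900. Compared as CPM per kilobase of reference transcript, CLDN2 led in A549 at 37 ± 6.12 (SD, n = 4), followed by TJP1 at 15 ± 1.47, F11R at 11.9 ± 0.925 and CLDN1 at 6.46 ± 1.2. Each of these was clear of the next in every library. CLDN12, CLDN3, OCLN and CLDN4 followed at 2.06 to 0.908 on this scale, with neighbours overlapping, and CLDN7 was last at 0.0873. In CPM, CLDN2 made up 76.1% to 83.3% of the sum of the 6 claudins of the set in the A549 libraries.

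H1792 had a flatter order. CLDN3 at 6.74 ± 0.53 CPM per kilobase (SD, n = 3), TJP1 at 6.35 ± 1.23, CLDN1 at 4.65 ± 0.646 and CLDN4 at 4.46 ± 0.593 each overlapped their neighbour. CLDN12 (1.93), CLDN7 (0.786), OCLN (0.48) and F11R (0.315) came next and CLDN2 was last at 0.18, overlapping F11R. With AMG900 the order opened: CLDN3 at 14.2 ± 0.831 and CLDN4 at 13.3 ± 0.619 were then clear of TJP1 at 5.52 ± 0.327, and CLDN12 dropped below CLDN7.

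**Figure D3:**
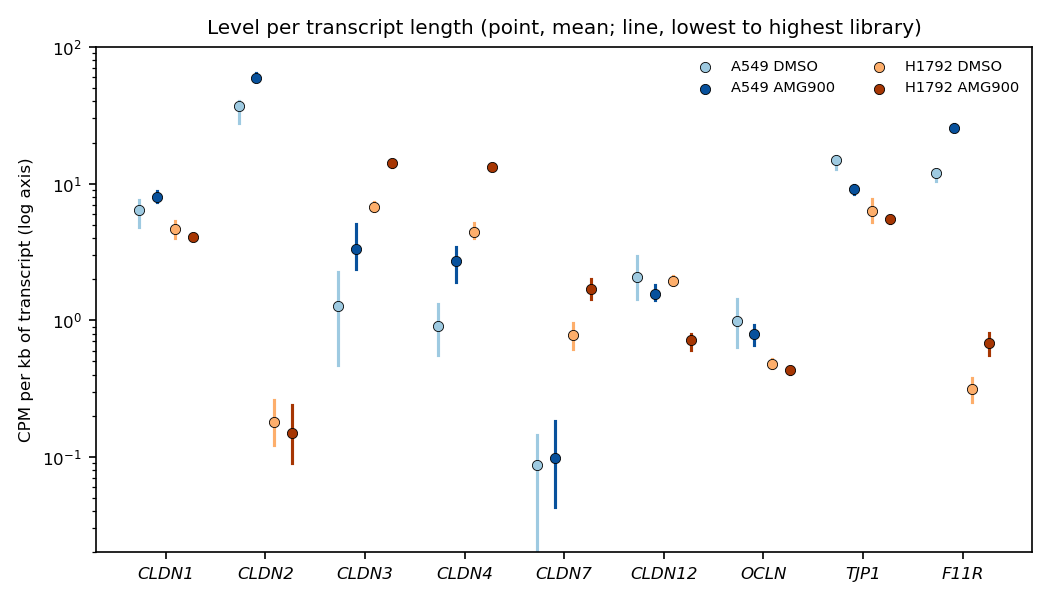
Level of each gene as CPM per kilobase of reference transcript (y axis, log scale) for the 4 groups. Points are group means and lines run from the lowest to the highest library, and the line of CLDN7 in A549 with DMSO goes on to 0. CLDN2 and F11R are high in A549 and low in H1792, and CLDN3, CLDN4 and CLDN7 show the reverse.

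Between the lines with DMSO, 8 of the 9 genes passed the test, 3 higher and 5 lower in H1792, beside 34.2% and 32.0% of 14769 genes. This contrast cannot be told apart from the culture medium, the depth and the sequencing run, which the labels do not give. CLDN2 was 210-fold lower in H1792 (log2 -7.72 ± 0.23, adjusted p = 2.88e-15) and F11R 38.1-fold lower (-5.25 ± 0.14, adjusted p = 4.6e-18). TJP1 was lower by 2.38-fold (adjusted p = 1.43e-09) and OCLN by 2.09-fold (adjusted p = 0.000256). CLDN3 (5.35-fold), CLDN4 (5.24-fold) and CLDN7 (9.32-fold) were higher, with adjusted p-values of 4.78e-07, 2.25e-09 and 7.92e-06. CLDN7 had only 0 to 3 counts in the A549 DMSO libraries and too few for a test in A549 alone, so its fold value is uncertain. CLDN1 was 1.42-fold lower (adjusted p = 0.00148), but its groups overlapped, and it missed the threshold without H1792 DMSO replicate 1 (log2 -0.35, adjusted p = 0.031) or A549 DMSO replicate 4 (-0.42, adjusted p = 0.0104). CLDN12 differed by -0.14 (95% interval -0.50 to 0.23, adjusted p = 0.524). The groups did not overlap for 7 of the 9 genes, as for 68.3% of all genes tested.

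The changes with AMG900 followed the GC content of the transcripts across all genes, and the 9 genes span nearly the whole range. In A549 the median log2 fold change was -0.45 for genes of up to 40% GC and 0.37 for genes above 60%, and in H1792 it was -0.48 and 0.23. CLDN3 (69.2% GC) and CLDN4 (60.8%) lie at the upper end and CLDN12 (37.7%), OCLN (38.8%) and CLDN1 (41.3%) at the lower. After a GC correction for each library, CLDN4 rose by log2 1.17 in A549 (adjusted p = 0.00234) and 1.24 in H1792 (3.63e-07), CLDN3 by 0.68 in H1792 (3.59e-05) and CLDN7 by 0.88 (0.0036). F11R, at 46.7% GC, was nearly unmoved at 1.09 and 1.17. CLDN12 fell by 0.93 in H1792 (adjusted p = 7.64e-05) and was at -0.01 in A549. TJP1 fell by 0.65 in A549 (adjusted p = 1.13e-06). CLDN3 in A549 came to 0.78 (adjusted p = 0.08), CLDN1 in A549 came to 0.56 and passed (adjusted p = 0.00142), and OCLN changed sign in both lines (0.04 and 0.28, not past the threshold).

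**Figure D4:**
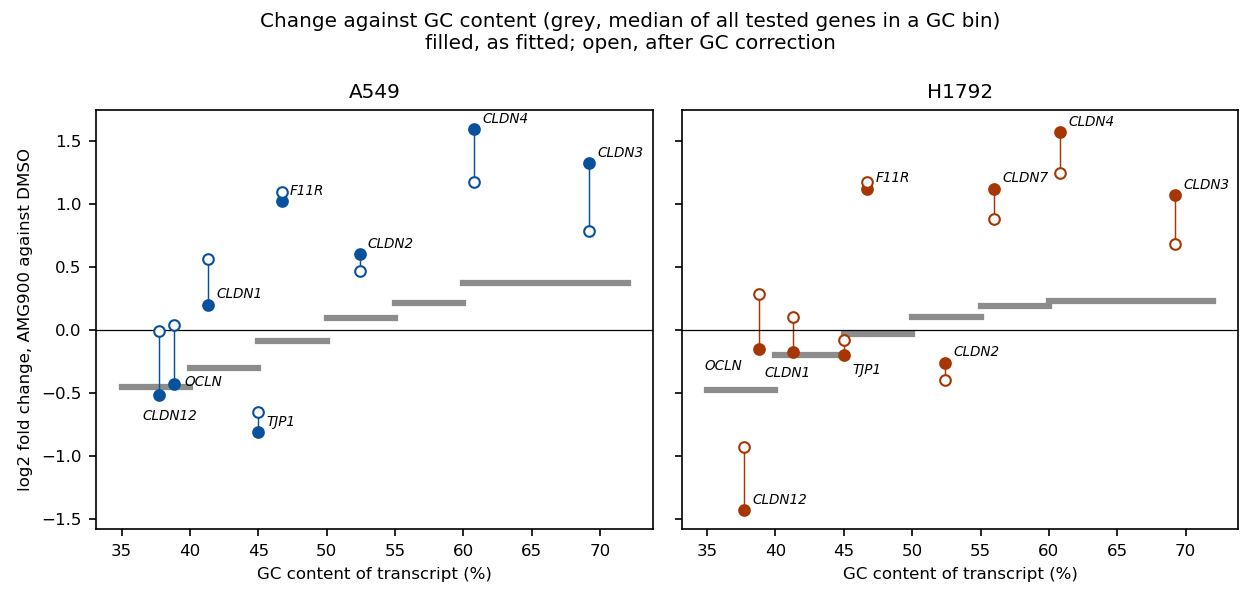
Log2 fold change between AMG900 and DMSO (y axis) against the GC content of the reference transcript (x axis, %) in A549 (left) and H1792 (right). Filled points are the values as fitted, open points those after the GC correction, and grey bars the median of all tested genes in a GC range. CLDN4 stays above the grey bars in both lines and CLDN12 in A549 moves from -0.52 to -0.01.

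Of 17 further claudins, 2 had enough counts in A549 and 4 in H1792. CLDN11, a claudin known from myelin and the testis, was far above all 6 claudins of the set in H1792, at 84.4 CPM per kilobase with DMSO (10009 to 14785 counts), and had 0 to 7 counts in the A549 libraries. It did not pass the test with AMG900 in H1792 (log2 -0.13, adjusted p = 0.0646). CLDN10, another ion-selective claudin, had 0 counts in all A549 libraries and 13.4 ± 0.212 CPM in H1792 with DMSO, at least 212-fold higher when 3 counts over the A549 DMSO group are taken as the floor. It rose in H1792 to 19.8 ± 0.25 CPM with AMG900 (log2 0.56 ± 0.08, adjusted p = 0.000123), as did CLDN15, a cation claudin, from 5.09 ± 0.25 to 8.54 ± 0.687 CPM (log2 0.74 ± 0.11, adjusted p = 0.00023). In A549, CLDN15 was at 0.36 (adjusted p = 0.0435) and CLDN23 at -0.10 (adjusted p = 0.624).

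Of 80 further junction genes in 5 lists, 53 were tested in A549, with 13 higher and 13 lower, and 61 in H1792, with 9 higher and 12 lower. Over all genes tested, 17.3% were higher and 17.8% lower in A549, and 16.7% and 19.2% in H1792. These shares also stand beside the counts of the single lists that follow. Among other membrane proteins of the tight junction, 1 was higher and 1 lower of 7 in A549, and none of 9 passed in H1792. LSR, which builds the corners where 3 cells meet, went from 9.09 ± 1.93 to 19.5 ± 2.8 CPM in A549 (log2 1.00 ± 0.16, adjusted p = 0.000112) and was at 9.02 ± 1.96 and 8.92 ± 0.769 CPM in H1792. That difference between the lines passed (-1.10 ± 0.23, adjusted p = 0.00153).

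Scaffold and polarity proteins moved in both directions, 6 higher and 6 lower of 26 in A549 and 3 and 5 of 26 in H1792. TJP3 rose by 1.88 in A549 (adjusted p = 0.00015) and by 1.34 in H1792 (adjusted p = 0.00981). Its counts were low, at 11 to 19 and 9 to 27 in the DMSO libraries of A549 and H1792. PRKCI, the atypical protein kinase C of the apical polarity complex, fell by 0.97 in A549 (adjusted p = 0.000304) and by 1.03 in H1792 (adjusted p = 9.41e-06). MPP5 (PALS1), the adaptor of the Crumbs complex, fell by 1.26 (adjusted p = 2.03e-05) and by 0.95 (adjusted p = 0.000129). ARHGEF2, a junction-bound activator of RhoA, rose by 0.61 in A549 (adjusted p = 4.6e-05) and by 0.32 in H1792 (adjusted p = 0.000248). PRKCZ, another atypical protein kinase C, rose in A549 (0.68, adjusted p = 5.08e-05), and its H1792 value of 1.38 rested on 2 to 32 counts (adjusted p = 0.0502). RAB13, a GTPase of junction traffic, rose by 0.46 and 0.32 (adjusted p = 5.36e-05 and 0.00028). MPDZ (MUPP1), a scaffold with many PDZ domains, fell in A549 (-0.55, adjusted p = 0.00186) with overlapping groups and was at -0.40 in H1792 (adjusted p = 0.0208). VAPA fell in H1792 (-0.50, adjusted p = 0.000107) and was at -0.23 in A549 (adjusted p = 0.148). PARD6G, a partner of these kinases, rose in A549 (0.61, adjusted p = 0.00945) and was at -0.44 in H1792 (adjusted p = 0.0136).

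Adherens junction genes gave 4 higher and 3 lower of 10 in A549 and 1 higher and 6 lower of 11 in H1792. The largest rise was that of PVRL4 (nectin-4), a cell adhesion molecule, from 2.53 ± 0.483 to 12.9 ± 1.48 CPM in A549 (log2 2.32 ± 0.19, adjusted p = 1.08e-07). In H1792 it fell from 1.53 ± 0.28 to 0.513 ± 0.114 CPM (-1.56 ± 0.27, adjusted p = 0.000606). JUP (plakoglobin) went from 117 ± 6.2 to 348 ± 29.1 CPM in A549 (log2 1.49 ± 0.07, adjusted p = 2.26e-10) and from 123 ± 5.05 to 148 ± 4.35 CPM in H1792 (0.26 ± 0.05, adjusted p = 0.00211). CDH1 rose in A549 by 0.82 (adjusted p = 0.000142) and was at 0.40 in H1792 (adjusted p = 0.218). CTNND1 (p120 catenin), which keeps cadherins at the membrane, fell by 1.03 in A549 (adjusted p = 0.00383) and by 1.65 in H1792 (adjusted p = 2.36e-05). The difference between the lines did not pass (-0.70, adjusted p = 0.124). VCL (vinculin), which links junctions to actin, fell by 1.06 in A549 (adjusted p = 4.34e-08) and 0.73 in H1792 (adjusted p = 3.47e-06). CTNNB1 (beta-catenin) fell by 0.42 and 0.59 (adjusted p = 0.000176 and 9.07e-06).

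Among 14 transcription and splicing factors of junction genes, 2 were higher and 3 lower of 8 in A549, and 3 higher and 1 lower of 11 in H1792. SNAI1, an E-box repressor, fell in A549 from 10.2 ± 1.22 to 5.32 ± 0.792 CPM (log2 -1.03 ± 0.17, adjusted p = 0.000146) and rose in H1792 from 34 ± 0.65 to 45.6 ± 2.31 CPM (0.42 ± 0.06, adjusted p = 0.000279). The opposite directions passed the direct test (1.39 ± 0.16, adjusted p = 1.56e-06). SNAI2 fell in A549 (-0.74 ± 0.19, adjusted p = 0.00433), with overlapping groups, and was at 0.49 ± 0.20 in H1792 (adjusted p = 0.0551). ELF3, an epithelial activator, rose in both lines, by 0.82 in A549 (adjusted p = 8.28e-08) and by 0.90 in H1792 (adjusted p = 1.55e-05). ZEB2 fell in H1792 (-0.69 ± 0.10, adjusted p = 0.00017) and was at -0.22 in A549 (adjusted p = 0.428). ZEB1 fell in A549 (-0.88 ± 0.19, adjusted p = 0.00154) and was at -0.31 in H1792 (adjusted p = 0.11). GRHL3, another factor of this list, rose in A549 (3.87 ± 0.45, adjusted p = 4.35e-06), from 1 to 6 counts up to 59 to 101. In H1792 GRHL3 was at 0.47 (adjusted p = 0.417). Over the 5 lists, the effect of AMG900 differed between the lines for 13 of the 60 genes tested in the fit of all libraries. Of these, 4 were more positive and 9 more negative in H1792, beside 5.48% and 9.34% of all 14769 genes tested.

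With DMSO alone, 18 of the 60 junction genes were higher and 23 lower in H1792 than in A549. Over all 14769 genes tested, 34.2% were higher and 32.0% lower. HNF4A, an activator of epithelial genes (log2 -9.14), PRKCZ (-7.04) and CDH1 (-4.98) were far below A549. The H1792 DMSO libraries held only 0 to 3 counts of HNF4A and 2 to 10 of PRKCZ, so the size of both differences is uncertain. TWIST1, a factor of mesenchymal cells (2.78), ARHGEF2 (2.12) and SNAI1 (1.71) were higher, while SNAI2 was lower (-2.73).

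**Figure D5:**
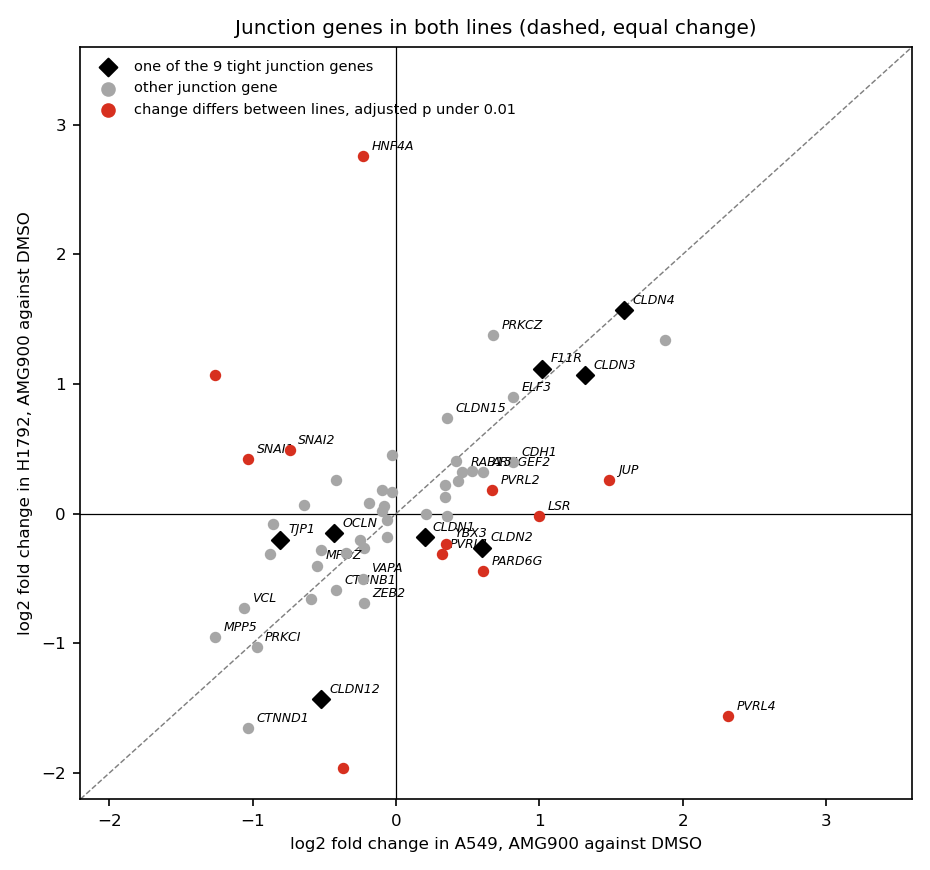
Log2 fold change between AMG900 and DMSO in A549 (x axis) and H1792 (y axis) for 60 genes tested in both lines. They include genes of the set, unlike the 60 junction genes counted in the text. Diamonds are the genes of the set, red points passed the test of the difference between the lines and the dashed line marks equal change. CLDN4 and F11R lie next to the dashed line, and SNAI1, LSR, JUP, PARD6G and PVRL4 are among the red points.

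The genes whose levels varied most like each member were named, for all but CLDN7, by the Pearson correlation of log2 CPM, after the mean of each line was taken off, over 14 libraries and 8508 or 8509 candidate genes. The points share libraries, treatment and depth, so the values only describe. CLDN4 was closest to MLPH (r = 0.993) and HGS (0.983), F11R to PDGFB (0.98) and CTSS (0.969), and CLDN3 to RTN2 (0.941) and RIN1 (0.94). CLDN12 was closest to ATG2B (0.946) and PDE4D (0.944), TJP1 to PRMT5 (0.973) and MED1 (0.968), and CLDN1 to FOXO3 (0.97). Likeness was weaker for CLDN2, with TCEAL8 (0.855) and CPS1 (0.839), and for OCLN, with NOD1 (0.837) and ADGRA3 (0.82). Within the set, CLDN3 and CLDN4 (0.892) and CLDN4 and F11R (0.877) had the highest values, and CLDN4 and TJP1 the lowest (-0.821).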

How the data were processed

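RNA was sequenced on an Illumina NextSeq instrument, and the authors deposited raw read counts per gene symbol, 1 table for each line (26760 entries each). The submitters' processing notes name STAR, HTSeq and the builds hg19 and GRCh37. Versions, annotation and the strand setting are not given in the sources used here. In the H1792 table, 28 entries that bear calendar dates (0.101% to 0.117% of counts) were left out. With R 4.3.3 and edgeR 4.0.16, genes were kept by filterByExpr, libraries scaled by TMM and fitted by robust quasi-likelihood models over all genes, with Benjamini-Hochberg adjustment and a threshold of 0.01. Each line was fitted alone. The difference of the AMG900 effect and the contrast of the DMSO groups came from 1 fit of 14 libraries, whose TMM factors also give the CPM values. Replicates differed by more than counting error (chi-square per gene 3.31 to 48.3). The coefficient of biological variation was 12.8% in A549 and 9.6% in H1792. The model fits were also run on simulated counts in which the changed genes were known.

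The 9 genes and the junction lists were chosen with earlier results of these data known. Junction genes outside the set were named by a rule: up to 3 higher and 3 lower per list and comparison, past the threshold and with a mean of at least 100 counts; values of such a gene in another comparison are given for some only, and some genes named by the rule only between the lines are left out. Some genes under that mean count were added after their values were seen. They are PVRL4, PVRL3, ESAM and GRHL3 between the lines, ZEB1 and GRHL3 in A549, and TJP3 in both lines. Alternatives were DESeq2 1.42.0, its size factors, total counts, no low-count filter, at least 10 counts in every library, a threshold of 0.05, a replicate block, a GC correction (natural spline, 5 degrees of freedom) and each library left out in turn. Reference transcripts are from GENCODE on GRCh37 and promoter windows from RefSeq on GRCh38.p14. For the 8 genes tested in both lines, the 2 genes most like each in pattern were sought, and 1 of those for CLDN1 is not reported here. CLDN7 was left out of that comparison.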

Additional observations from a re-analysis of the deposited data

Results flagged for a closer look

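A549 DMSO replicate 1 stood apart from the other 3 libraries of its group for CLDN2, at 82.4 CPM (gap over range 0.92), and for F11R, at 48.7 CPM (0.857), 2 of 18 groups tested where chance gives about 5%. The edgeR interaction test took the H1792 change minus the A549 change on the log2 scale. Of 60 junction genes tested, 4 were more positive and 9 more negative in H1792, beside 5.48% and 9.34% of all genes. With a mean under 100 counts, ESAM differed by 2.25 (adjusted p = 0.000511), PVRL3 by -1.67 (0.00139) and GRHL3 by -3.49 (0.000983). The difference was -1.10 for LSR (adjusted p = 0.00153), -1.12 for PARD6G (0.000944) and -0.66 for YBX3 (0.0011). JUP differed by -1.30 (adjusted p = 2.97e-09), PVRL1 by -0.71 (0.00024) and PVRL2 by -0.57 (0.000186), the last 2 being nectins. PVRL4, a nectin too, differed by -3.95 (adjusted p = 3.84e-09), rising in A549 and falling in H1792. SNAI1 differed by 1.39 (adjusted p = 1.56e-06) and SNAI2 by 1.16 (0.00509). HNF4A, an activator of epithelial genes, differed by 2.87 (adjusted p = 0.00103), but H1792 held only 0 to 3 counts of it with DMSO and 10 to 22 with AMG900.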

How the results depend on the processing

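For the effect of AMG900, CLDN4 and F11R in both lines, CLDN3 and CLDN12 in H1792 and CLDN2 and TJP1 in A549 kept direction and call under every alternative that was run for them. The GC correction turned the sign of values that had not passed: OCLN to 0.04 in A549 and 0.28 in H1792, CLDN1 to 0.10 in H1792 and the line difference of F11R to -0.02. It also took CLDN1 between the lines out of the call (-0.34, adjusted p = 0.0153). CLDN3 in A549 passed with DESeq2 (adjusted p = 0.00394) and with no low-count filter (0.00321). For the line difference, 1 gene of the set was more positive at a threshold of 0.05, with DESeq2, with its size factors, with total counts, with no filter and with the GC correction, and 1 was more negative at 0.05, with DESeq2, with at least 10 counts in every library and with the GC correction. The junction lists gave 7 more positive with DESeq2 and 2 with at least 10 counts in every library, and in H1792 15 higher at 0.05. With at least 10 counts in every library, only 1 gene of the set stayed among those higher in H1792 with DMSO, since fewer genes were tested. Where no value shows the cause, the cause was not tested.

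With a library left out, the H1792 value of CLDN2 ran from -0.75 to 0.11, the line differences of F11R from -0.10 to 0.16, of CLDN4 from -0.23 to 0.05 and of OCLN from -0.01 to 0.40, and CLDN12 between the lines from -0.23 to 0.08. Genes of the set lower in H1792 numbered 1 to 3, and those with a line difference 0 to 1 in each direction. Total counts shifted the median of the DMSO contrast by -0.11. Of calls on the line difference 37% were more positive, and 49.5% with DESeq2 size factors. A replicate block moved CLDN4 to 1.60 in A549 and 1.58 in H1792 and changed no call of the 9 genes. In the junction lists it left 12 higher and 12 lower in A549 and 7 higher and 12 lower in H1792, and over all genes 1917 higher and 1979 lower in A549. Same-numbered libraries did not deviate together (correlations -0.0604 to 0.0425). No paired analysis was possible for the DMSO contrast because the block lies within each line.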
